A study of Mus musculus with 12 samples.

Results

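Nodal signalling was followed through 6 of its genes in the fetal mouse testis: the ligand Nodal, its co-receptor Tdgf1, the antagonists Lefty1 and Lefty2, and the receptors Acvr1b and Acvr2b. Members were taken by gene symbol, through the probe sets that the platform annotation pairs with 1 of these genes alone. They are 6 of the 18032 genes that the arrays measured with such a probe set, and 10 probe sets in all. A gene with several probe sets is given by the brightest, meaning the highest mean over the 12 arrays, and the others served as a check.

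Male genital ridges and testes of 2 mouse strains were compared at E13.5, at E15.5 and at E17.5 (embryonic days), with 2 whole-genome arrays in each of the 6 groups. M19 is the chromosome substitution strain 129.MOLF-Chr 19, whose chromosome 19 comes from the MOLF strain and whose background is 129, and 129 is the 129/Sv strain. M19 is known as a model in which testicular germ cell tumours are frequent, and the title of the series names genes of transformed germ cells as the subject. Neither strain had a transgene or a treatment per the labels. Per the labels' protocols, 40 pairs of testes were pooled for 2 arrays, so both arrays of a group may come from 1 pool, and p-values then measure only the spread between arrays.

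Nodal is a secreted ligand of the TGF-beta family. It signals through a type I receptor such as Acvr1b and a type II receptor such as Acvr2b, and needs the membrane-bound co-receptor Cripto, the product of Tdgf1. Activated Smad2 and Smad3 then enter the nucleus and, with Smad4 and Foxh1, switch on target genes that include Nodal itself and the Lefty genes, whose secreted products block the ligand and the co-receptor. In the fetal mouse testis the pathway is known to be active for a short time in male germ cells after sex determination, when these cells still express pluripotency genes.

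None of the 6 genes lies on chromosome 19, the chromosome that M19 received from MOLF. In RefSeq's annotation of mouse build GRCm38.p6, Nodal lies on chromosome 10 at 61417972 to 61425338 and Tdgf1 on chromosome 9 at 110939608 to 110946158. Lefty2, at 180893108 to 180899107, and Lefty1, at 180935022 to 180938401, lie close together on chromosome 1, with 35914 bases between them. Acvr1b lies on chromosome 15 at 101174072 to 101213684, and Acvr2b on chromosome 9 at 119401583 to 119442148.

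The arrays were alike in scale, with medians of 8.1 to 8.27 on the log2 scale, and their number limits the precision. Replicate 1 of 129 at E13.5 stood apart: its 18S ribosomal control probe sets averaged 9.69, against 6.88 to 8.38 on the other 11 arrays. The difference between its group's 2 arrays had an SD over probe sets of 0.38, against 0.161 to 0.292 in the other groups. The 18S average of 8.38 was that of replicate 1 of 129 at E15.5. The other array of that group had 6.88, and the SD of the group was 0.292. Both 129 arrays at E15.5 also stood apart, in 10 markers of skin, muscle and cartilage, tissues that neighbour the gonad. Their mean signal on those 2 arrays was 10.25 and 10.33, against 7.08 to 7.56 on the other 10 arrays. Strain differences at E13.5 and stage differences of 129 from E13.5 use the first of these arrays. The strain difference at E15.5 and both steps in 129 use the E15.5 pair and have no value without it.

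**Figure D1:**
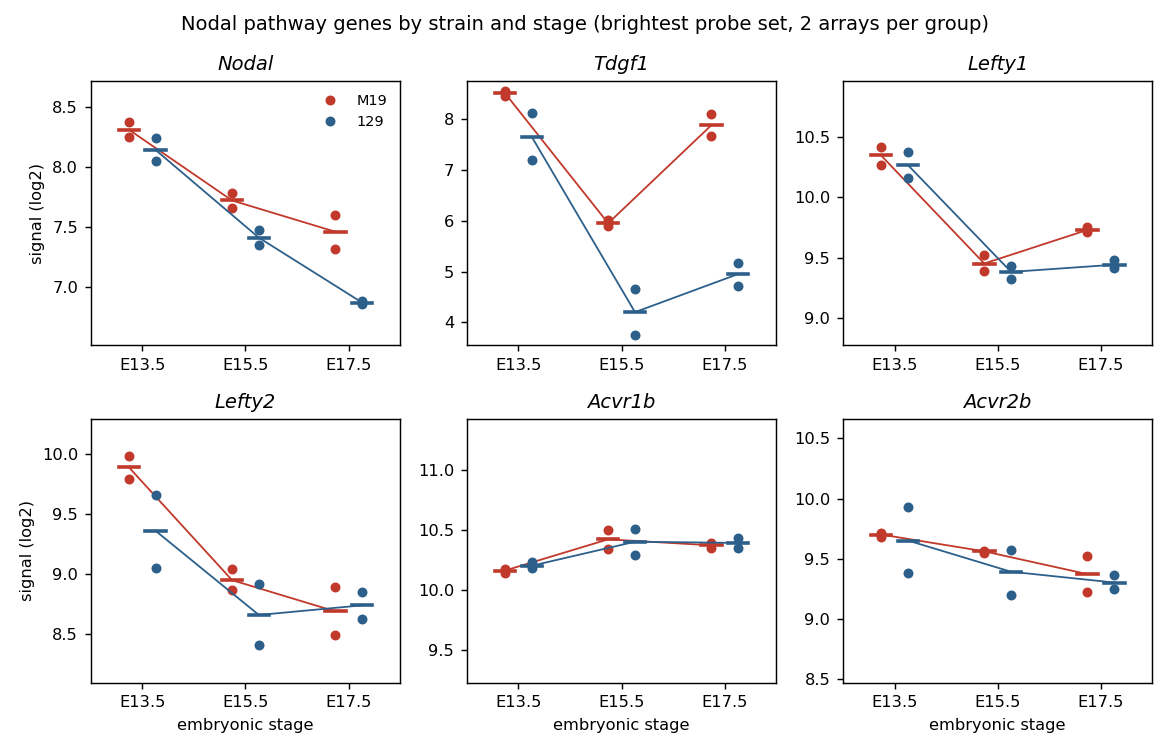
Signal of the 6 genes (log2, vertical axes, each with its own range) on every array by embryonic stage, for M19 (red, left of each pair) and 129 (blue); points are arrays, bars are means of 2 arrays, and lines join the means. Tdgf1 in M19 at E17.5 stood at 7.66 and 8.1, against 5.17 and 4.72 in 129, while Acvr1b stayed between 10.14 and 10.51 on all 12 arrays.

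Tdgf1, the co-receptor gene, had the widest range of the 6 genes, with group means that spanned 4.3 log2 units. At E13.5 its signal was 8.55 and 8.46 on the M19 arrays, against 7.19 and 8.12 on the 129 arrays. At E15.5 it was 6.01 and 5.89 in M19, against 3.75 and 4.65 in 129. At E17.5 it was 7.66 and 8.1 in M19, against 5.17 and 4.72 in 129. Both M19 arrays lay above both 129 arrays at each stage, and the gap was widest at E17.5. Fewer cells that express a gene and less RNA per cell cannot be told apart in such whole-organ samples.

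The strain difference of Tdgf1 was 0.85 ± 0.33 log2 units at E13.5 (M19 minus 129, SE of the model, n = 2 arrays each), with an adjusted p of 1 in the limma test across all 45037 probe sets. Without replicate 1 of 129 at E13.5, the array that stood apart in its 18S signal, it became 0.39, and over the 12 fits that left out 1 array it ran from 0.39 to 1.32. Tdgf1 was higher in M19 at E15.5 by 1.74 ± 0.33, a 3.35-fold difference (limma, adjusted p = 0.047). It was higher in M19 at E17.5 by 2.93 ± 0.33, which is 7.63-fold (limma, adjusted p = 0.0068). Averaged over the 3 stages the difference was 1.84 ± 0.19, or 3.59-fold (limma, adjusted p = 0.00098). In that averaged comparison Tdgf1 had the largest positive difference of all 45037 probe sets, and it ranked 34 at E13.5, 4 at E15.5 and 3 at E17.5.

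Without replicate 1 of 129 at E15.5, the array with an 18S average of 8.38, the Tdgf1 difference at E15.5 was 1.3. The E15.5 call was close to its threshold. It was lost with quantile normalization (adjusted p = 0.068), with median centring (adjusted p = 0.06) and in 9 of the 12 limma fits that left out 1 array, where the difference ran from 1.3 to 2.19. The E17.5 call was lost when either 129 array or replicate 2 of M19 at that stage was left out, with differences of 2.7 to 3.16 over the 12 such fits. The call over the 3 stages was kept in all 12 of them, with a highest adjusted p of 0.0084. It was also kept without the E15.5 arrays, at 1.89 (limma, adjusted p = 0.016), so without the 2 arrays that were high in skin, muscle and cartilage markers.

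Tdgf1 was dim on most arrays, below the array median on 9 of 12. On the M19 arrays its signal was at or above that of 9.3% and 7.67% of all probe sets at E15.5, and of 37.7% and 47.4% at E17.5. On the 129 arrays it was at or above that of only 0.662% and 1.77% at E15.5, and of 3.16% and 1.98% at E17.5. No detection calls were used here, so fold changes against the dimmest 129 groups rest on signals near the bottom of the array scale. Tdgf1 has 1 probe set, so no other probe set could check it. RefSeq also lists Tdgf1 pseudogenes on other chromosomes, and whether the probes bind their RNA was not tested.

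Within each strain, Tdgf1 was lowest at E15.5. From E13.5 to E15.5 it fell by 2.56 ± 0.33 log2 units in M19, a 5.9-fold decrease (limma, adjusted p = 0.00081). The same step in 129 was a fall of 10.9-fold, at -3.45 ± 0.33 (limma, adjusted p = 0.00011), and without replicate 1 of 129 at E13.5 it was -3.92 (limma, adjusted p = 0.00013). From E15.5 to E17.5 Tdgf1 rose again in M19, by 1.93 ± 0.33 or 3.81-fold (limma, adjusted p = 0.013). That call was lost without either M19 array at E15.5 or at E17.5, with a highest adjusted p of 0.12. In 129 the same step was 0.74 ± 0.33 (limma, adjusted p = 0.36).

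Over the whole period, E17.5 minus E13.5, Tdgf1 fell by 2.71 ± 0.33 in 129 (limma, adjusted p = 0.00042), and without replicate 1 of 129 at E13.5 the difference was -3.17 (limma, adjusted p = 0.00033). In M19 the difference was -0.63 ± 0.33 (limma, adjusted p = 0.23). The strain difference grew by 0.89 ± 0.46 log2 units between E13.5 and E15.5 and by 1.19 ± 0.46 between E15.5 and E17.5. The test of both changes together was not called (limma F test, adjusted p = 0.52). In order of their means, the groups ran from M19 at E13.5 through M19 at E17.5, 129 at E13.5, M19 at E15.5 and 129 at E17.5 to 129 at E15.5. Of these neighbours, the arrays of M19 at E17.5 and 129 at E13.5 alone overlapped.

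The sequence before the start of Tdgf1 is shown because Foxh1 and the Smads are the pathway's own nuclear factors and Tdgf1 moved most among the 6 genes. It is RefSeq's, from 250 bases before to 50 bases after the gene's start (build GRCm38.p6, minus strand, chr9:110946109-110946408, 5′ to 3′). Capitals mark letter matches to a Foxh1 core (TGTNNATT or its complement AATNNACA) and to the SMAD box (CAGAC or GTCTG), on either strand.

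Tdgf1: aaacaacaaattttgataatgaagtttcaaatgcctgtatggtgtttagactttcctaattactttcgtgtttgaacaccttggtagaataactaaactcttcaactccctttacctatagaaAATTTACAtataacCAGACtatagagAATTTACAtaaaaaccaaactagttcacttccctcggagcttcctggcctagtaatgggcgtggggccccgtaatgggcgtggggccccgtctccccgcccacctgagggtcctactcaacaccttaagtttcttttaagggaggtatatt

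The 2 Foxh1 core matches lie 127 to 120 and 101 to 94 bases before the start, with the SMAD box between them at 113 to 109, so that all 3 fall within 34 bases (110946252 to 110946285). The matches do not overlap each other. Of 32851 promoter windows of the same length in the table, 12.2% hold the Foxh1 core, 49.6% the SMAD box, and 201, or 0.612%, hold at least 2 Foxh1 cores and 1 SMAD box. Nearer to the start, outside these 34 bases, the window carries 2 copies in a row of a 19-base run. They lie from 50 to 32 and from 31 to 13 bases before the start, and 1.48% of the windows hold a repeat of that length or longer. That length and the combination of motifs are those of the Tdgf1 window itself, so both shares are descriptions and no test. The window of Nodal had no match to either motif, that of Acvr1b had none, and that of Acvr2b had 1 SMAD box. The windows of Lefty1 and Lefty2 were not analysed here. A match of letters is no proof of a site, and binding was not measured.

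Of the 6 genes, 0 were called between the strains at E13.5, where 0.0511% of all probe sets were called in either direction (limma). At an unadjusted p under 0.05, 2 of the 6 passed, Tdgf1 and Lefty2, against 1252 of all 45037 probe sets. At E15.5 and at E17.5, 1 of 6 was called, Tdgf1 each time, against 0.573% and 0.0977% of all probe sets. Over the 3 stages 1 of 6 was called, again Tdgf1, against 0.42%. The median strain difference of the 6 genes was 0.12, 0.23 and 0.18 at E13.5, E15.5 and E17.5, and that of all probe sets was -0.05, 0.01 and 0. Both M19 arrays lay above both 129 arrays for 3, 2 and 3 of the 6 genes at the 3 stages, against 9.06%, 18.1% and 13.2% of all probe sets.

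**Figure D2:**
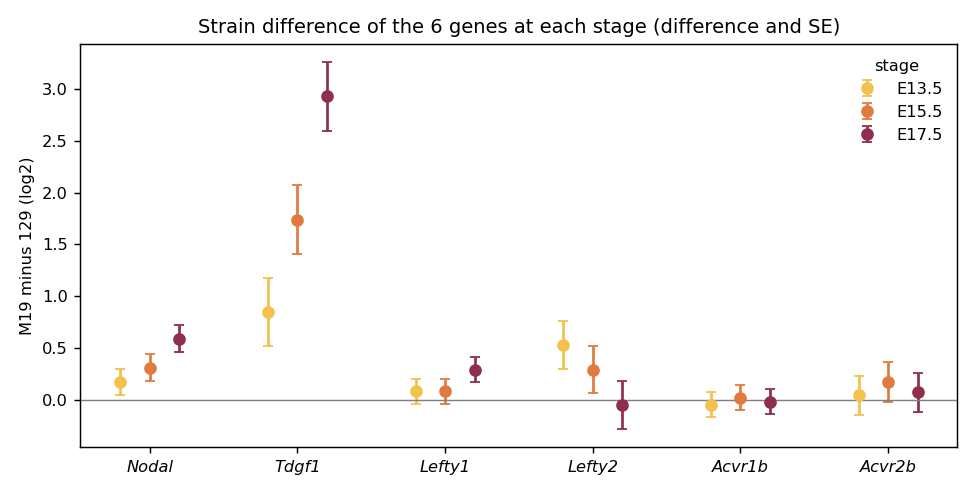
Strain difference (M19 minus 129, log2, vertical axis) of the 6 genes at each stage; points are differences of means of 2 arrays and bars are the SE of the limma model. Tdgf1 ran from 0.85 at E13.5 to 2.93 at E17.5, and the other 5 genes lay between -0.05 and 0.59.

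Nodal, the ligand, was highest at E13.5 and lowest at E17.5 in both strains. Its signal at E13.5 was 8.37 and 8.25 in M19, against 8.05 and 8.24 in 129. At E15.5 it was 7.78 and 7.66 in M19, against 7.47 and 7.35 in 129. At E17.5 it was 7.6 and 7.32 in M19, against 6.88 and 6.86 in 129. The M19 arrays lay above the 129 arrays at all 3 stages, by the smallest margin at E13.5, where 8.25 stood against 8.24.

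From E13.5 to E15.5 Nodal fell by 0.59 ± 0.13 in M19 (limma, adjusted p = 0.023) and by 0.73 ± 0.13 in 129 (limma, adjusted p = 0.0083). The early call in M19 was missed without any 1 of the 4 arrays compared, and that in 129 without replicate 2 of 129 at E15.5 (limma, adjusted p = 0.065). The early step in 129 rests on the E15.5 arrays with high skin, muscle and cartilage markers, whose part in it was not tested, and without replicate 1 of 129 at E13.5 it was -0.83 (limma, adjusted p = 0.012). Over the whole period Nodal fell by 0.85 ± 0.13 in M19, or 1.81-fold (limma, adjusted p = 0.0019), and by 1.28 ± 0.13 in 129, or 2.42-fold (limma, adjusted p = 0.00013). The late step, E17.5 minus E15.5, was -0.26 ± 0.13 in M19 and -0.54 ± 0.13 in 129, neither called (limma, adjusted p = 0.36 and 0.076). The 129 late step passed, with a lowest adjusted p of 0.043 over all alternatives, without either E13.5 array of 129 and when only 1 probe set per gene was tested.

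The strain difference of Nodal was 0.17, 0.31 and 0.59 at the 3 stages, each ± 0.13, and the first became 0.07 without replicate 1 of 129 at E13.5. None was called (limma, adjusted p = 1, 0.6 and 0.45). The difference over the 3 stages, 0.36 ± 0.08, was not called either (limma, adjusted p = 0.11). It kept its sign in all 22 alternatives, with adjusted p from 0.062 to 1. The dimmer probe set of Nodal gave 0.17 ± 0.08 over the 3 stages (limma, adjusted p = 1), and it was called lower over the whole period in M19 (-0.45, adjusted p = 0.049) and in 129 (-0.67, adjusted p = 0.0089). Both probe sets of Nodal were dim, the brighter below the array median on 9 of 12 arrays.

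Lefty1, an antagonist and a target of the pathway, fell from E13.5 to E15.5, and its late step was called in neither strain. Its signal at E13.5 was 10.42 and 10.27 in M19, against 10.38 and 10.16 in 129. At E15.5 it was 9.39 and 9.52 in M19, against 9.43 and 9.32 in 129. At E17.5 it was 9.75 and 9.71 in M19, against 9.48 and 9.41 in 129. The strains overlapped at E13.5 and E15.5, and at E17.5 both M19 arrays lay above both 129 arrays.

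From E13.5 to E15.5 Lefty1 fell by 0.89 ± 0.12 in M19 (limma, adjusted p = 0.0012) and by 0.89 ± 0.12 in 129 (limma, adjusted p = 0.0013), which is 1.86-fold in each. Without replicate 1 of 129 at E13.5 the 129 value was -0.79 (limma, adjusted p = 0.0082), and it rests on the same E15.5 arrays of 129 as that of Nodal. Over the whole period it fell by 0.62 ± 0.12 in M19 (limma, adjusted p = 0.0075) and by 0.83 ± 0.12 in 129 (limma, adjusted p = 0.0015). Without replicate 1 of M19 at E13.5 the M19 call was missed (limma, adjusted p = 0.091). The late step in M19 was 0.28 ± 0.12 (limma, adjusted p = 0.28). The strain difference was 0.08 at E13.5, 0.08 at E15.5 and 0.29 at E17.5, each ± 0.12, with a limma adjusted p of 1, 0.97 and 1.

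Lefty2, the second antagonist, had its highest signal in M19 at E13.5. There it was 9.79 and 9.98 in M19, against 9.05 and 9.66 in 129. At E15.5 it was 9.04 and 8.87 in M19, against 8.41 and 8.92 in 129. At E17.5 it was 8.49 and 8.89 in M19, against 8.85 and 8.63 in 129. The M19 arrays lay above the 129 arrays at E13.5 alone, and the lower of those 129 arrays, at 9.05, was replicate 1, which stood apart in its 18S signal.

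Lefty2 fell from E13.5 to E15.5 in M19 by 0.93 ± 0.23 (limma, adjusted p = 0.038) and over the whole period by 1.2 ± 0.23, or 2.29-fold (limma, adjusted p = 0.0065). The early call in M19 was missed in 6 of the 12 fits that left out 1 array, and that over the whole period without replicate 2 of M19 at E13.5 (limma, adjusted p = 0.071) or replicate 1 at E17.5 (limma, adjusted p = 0.067). In 129 the early step was -0.7 ± 0.23 and the whole period -0.62 ± 0.23, both with a limma adjusted p of 0.14. Without replicate 1 of 129 at E13.5 these became -1 (limma, adjusted p = 0.043) and -0.92 (limma, adjusted p = 0.036), and both were called. The strain difference of Lefty2 at E13.5, 0.53 ± 0.23 (limma, adjusted p = 1), became 0.23 without that array.

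By their brightest probe sets, the receptors moved least. Acvr1b, the type I receptor, stood at 10.14 and 10.17 in M19 against 10.23 and 10.18 in 129 at E13.5, and at 10.5 and 10.34 in M19 against 10.29 and 10.51 in 129 at E15.5. At E17.5 it stood at 10.39 and 10.35 in M19, against 10.35 and 10.43 in 129. The strains overlapped except at E13.5, where both 129 arrays lay just above both M19 arrays. Acvr1b was called in none of the 11 comparisons with either of its 2 probe sets (limma). Its strain difference over the 3 stages was -0.01 ± 0.07, and its largest stage difference was 0.27 ± 0.12, for E15.5 minus E13.5 in M19 (limma, adjusted p = 0.3).

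Acvr2b, the type II receptor, stood at 9.68 and 9.71 in M19 against 9.93 and 9.38 in 129 at E13.5. At E15.5 it was 9.55 and 9.56 in M19, against 9.57 and 9.2 in 129, and at E17.5 it was 9.52 and 9.22 in M19, against 9.25 and 9.36 in 129. The strains overlapped at every stage, at E13.5 through replicate 1 of 129, at 9.93, and this probe set was called in no comparison. A second probe set of Acvr2b was called lower from E13.5 to E15.5, by -0.56 ± 0.12 in M19 (limma, adjusted p = 0.017) and by -0.61 ± 0.12 in 129 (limma, adjusted p = 0.013). Over the whole period the second was also called lower, at -0.65 ± 0.12 in M19 (limma, adjusted p = 0.0047) and -0.71 ± 0.12 in 129 (limma, adjusted p = 0.0034). The third was not called from E13.5 to E15.5, at -0.26 ± 0.19 in M19 and -0.18 ± 0.19 in 129. Nor was it called over the whole period, at -0.25 ± 0.19 and -0.36 ± 0.19. The probe sets of this gene thus disagree on whether it changed with stage.

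Counted over the 6 genes, the early step was downward. From E13.5 to E15.5, 4 of 6 fell in M19 (Nodal, Tdgf1, Lefty1 and Lefty2), where 1.59% of all probe sets were called lower and 5.46% in either direction. In 129, 3 of 6 fell (Nodal, Tdgf1 and Lefty1), where 1.52% were called lower and 4.6% in either direction. The median difference of the 6 genes was -0.74 in M19 and -0.71 in 129, and that of all probe sets 0.03 and -0.04. In fits that left out 1 M19 array of either stage, 2 of the 4 calls in M19 held, Tdgf1 and Lefty1.

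The late step was mostly uncalled. From E15.5 to E17.5, 1 of 6 rose in M19 (Tdgf1), where 0.988% of probe sets were called higher and 2.34% in either direction. In 129, 0 of 6 were called, where 1.73% of probe sets were. There, 2 of 6, Nodal and Tdgf1, passed an unadjusted p under 0.05 (limma), against 5880 of all 45037 probe sets. Over the whole period 3 of 6 fell in M19 (Nodal, Lefty1 and Lefty2), where 5.34% of probe sets were called lower and 12.3% in either direction. Also 3 of 6 fell in 129 (Nodal, Tdgf1 and Lefty1), where 3.32% were called lower and 8.26% in either direction. Both steps share the E15.5 arrays, and the whole period shares its arrays with each step. The strain by stage interaction called 0 of 6 (limma F test), against 0.147% of probe sets. At an unadjusted p under 0.05 in that test, 1 of 6 passed, Tdgf1, against 1636 of all 45037 probe sets.

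The 3 genes whose group means spanned at least 1 log2 unit, Nodal (1.45), Tdgf1 (4.3) and Lefty2 (1.22), were each set against the 1051 genes with such a span. Likeness was Pearson's r over the 12 arrays, which share strain and stage, so it is given as a description. Tdgf1 was most like Otx2 (r = 0.933), a transcription factor gene of early embryo and brain, followed by Slc16a1 (0.876), Slc35d3 (0.865), L1td1 (0.861) and Cldn6 (0.857). Only Otx2 reached an r above 0.9 with Tdgf1. Nodal was most like Mtm1 (0.961), Cldn11 (0.943), Nanog (0.93), Dusp4 (0.925) and Unc5c (0.925), and 21 genes passed 0.9. Lefty2 was most like Cdh2 (0.972), Kcnd2 (0.964), Lrrfip1 (0.962), Gabra4 (0.961) and Tox3 (0.957), and 51 genes passed 0.9. Among the members themselves, Tdgf1 had an r of 0.815 with Lefty1, 0.706 with Nodal and 0.699 with Lefty2 over the 12 arrays.

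**Figure D3:**
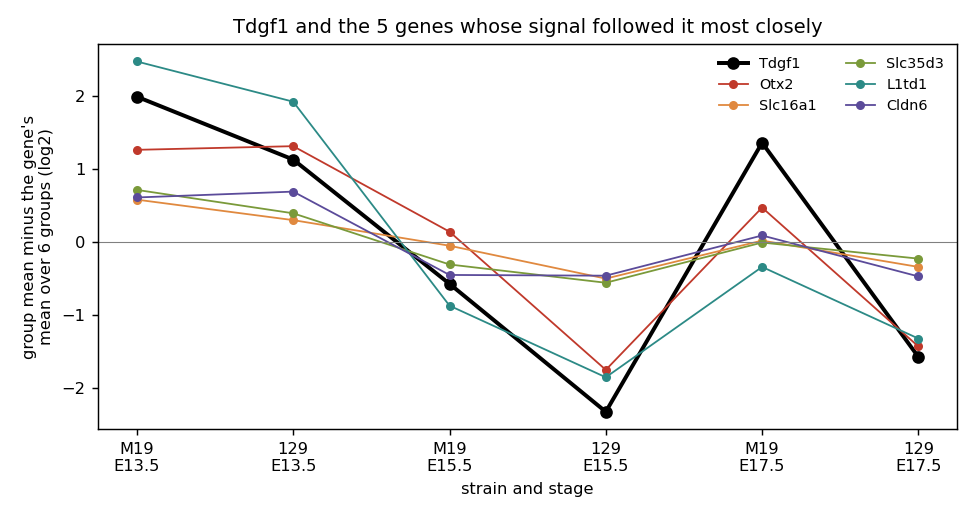
Group means of Tdgf1 (black) and of the 5 genes whose signal followed it most closely, each minus the gene's own mean over the 6 groups (log2, vertical axis), by strain and stage; lines only join the groups. In M19 at E17.5 Otx2 averaged 8.21, against 6.31 in 129, and Tdgf1 7.88, against 4.95 in 129.

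The rest of the pathway was read from a list of 31 genes, of which 28 had a probe set of their own. Between the strains at E13.5, 0 of 28 were called (limma). At an unadjusted p under 0.05, 2 of 28 passed, against 1252 of all 45037 probe sets. At E15.5 1 was higher in M19 (Otx2) and 1 lower (Inhba), and at E17.5 2 were higher in M19 (Otx2 and Foxa2). Over the 3 stages 1 was higher (Otx2). The shares called over all probe sets were 0.0511%, 0.573% and 0.0977% at the 3 stages and 0.42% over them. The median strain difference of the 28 genes was -0.07, 0 and 0 at the 3 stages, against -0.05, 0.01 and 0 over all probe sets.

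Otx2, a target of Nodal signalling in the early mouse embryo, was the one list gene called at more than 1 stage between the strains. At E13.5 it stood at 9.09 and 8.92 in M19, against 8.92 and 9.19 in 129. At E15.5 it was 7.9 and 7.87 in M19 against 6.07 and 5.92 in 129, and at E17.5 it was 8 and 8.42 in M19 against 6.4 and 6.23 in 129. The strains overlapped at E13.5 and were apart at both later stages. The 129 signals of both later stages were dim, below the lowest array median of 8.1, and no detection calls were used. Otx2 was higher in M19 by 1.89 ± 0.16 at E15.5 (limma, adjusted p = 0.00019) and by 1.89 ± 0.16 at E17.5 (limma, adjusted p = 0.0006), and both calls held in all 20 alternatives that measured it. The E15.5 difference rests on the 129 arrays with high skin, muscle and cartilage markers, whose part in it was not tested. At E17.5 that list averaged 7.56 in M19 and 7.5 in 129. The strain by stage interaction was called for Otx2 (limma F test, adjusted p = 0.0049): its strain difference grew by 1.93 ± 0.22 from E13.5 to E15.5 and by 0.01 ± 0.22 afterwards. The interaction call was missed without replicate 2 of M19 at E13.5. The call over the 3 stages, 1.24 ± 0.09, was lost without the E15.5 arrays, where the difference was 0.92 (limma, adjusted p = 0.051). It was also lost when both arrays of a group were averaged, a fit that fewer samples enter, with the difference still 1.24.

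Foxa2, another target in the early embryo, was higher in M19 at E17.5. It stood there at 8.51 and 8.55 in M19, against 7.42 and 7.43 in 129, a difference of 1.1 ± 0.15 (limma, adjusted p = 0.022). At the 2 earlier stages the 8 arrays of both strains lay between 7.06 and 7.53. Foxa2 rose from E15.5 to E17.5 in M19 by 1.27 ± 0.15 (limma, adjusted p = 0.0018). The E17.5 strain call was missed in 8 of the 12 fits that left out 1 array, with differences of 1.08 to 1.12. Gsc, a homeobox target, rose in the same step in M19 by 0.83 ± 0.18 (limma, adjusted p = 0.04), a call also missed in 8 of the 12 such fits. Its M19 signals were dim, at 6.05 and 6.23 at E15.5 and at 7.06 and 6.88 at E17.5.

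Inhba, which encodes the subunit of activin A, a ligand that uses the same receptors without the co-receptor, had 1 probe set that ran opposite to Nodal over the stages and a dimmer one that was not called. On the brighter, at E13.5 it stood at 9.05 and 8.86 in M19, against 9.29 and 9.21 in 129. At E17.5 it stood at 10.93 and 10.85 in M19, against 11.04 and 10.82 in 129. It rose over the whole period by 1.94 ± 0.12 in M19 (limma, adjusted p = 3e-06) and by 1.68 ± 0.12 in 129 (limma, adjusted p = 1e-05). The next brightest probe set gave 0.28 in M19 (limma, adjusted p = 0.36) and 0.2 in 129 (limma, adjusted p = 0.64), and for the early step 0.05 in M19 and -0.02 in 129, so the probe sets of Inhba disagree and its rise rests on 1 of them. Inhba was lower in M19 at E15.5 by -0.73 ± 0.12 (limma, adjusted p = 0.023), with 10.16 and 10.08 in M19 against 10.83 and 10.87 in 129. This call was missed without any 1 of the 4 arrays compared, and the next brightest probe set gave 0. The 129 arrays in that comparison are the ones with high skin, muscle and cartilage markers, whose part in the Inhba difference was not tested.

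Over the whole period, 6 of the 28 list genes rose and 4 fell in M19, where 12.3% of all probe sets were called in either direction. The 6 were Inhba, Inhbb, Cer1, Smad7, Gsc and Foxa2, and the 4 were Acvr2a, Tgfbr1, Smad3 and Otx2. In 129, 2 rose (Inhba and Inhbb) and 3 fell (Tgfbr1, Smad3 and Otx2), where 8.26% of all probe sets were called. Smad3, a transducer, fell by 0.54 ± 0.12 in M19 (limma, adjusted p = 0.013) and by 0.73 ± 0.12 in 129 (limma, adjusted p = 0.0031). The difference of Otx2 was -0.8 ± 0.16 in M19 (limma, adjusted p = 0.008) and -2.74 ± 0.16 in 129 (limma, adjusted p = 2.1e-06). Only Inhba, Inhbb and Foxa2 among the 10 calls in M19 held in all 12 fits that left out 1 array. The call of Smad7, an inhibitory Smad, was missed in 7 of the 12, and its difference of 0.65 (limma, adjusted p = 0.046) became 0.4 without replicate 2 of M19 at E17.5. Those of Smad3 and Cer1 were missed without any 1 of the 4 arrays compared. Those of Acvr2a and Tgfbr1, which encode receptors of the family, were missed in 3 of the 12 each, and that of Gsc in 1. That of Otx2 was missed without replicate 1 of M19 at E13.5 (adjusted p = 0.083) or at E17.5 (adjusted p = 0.078). In 129 the call of Tgfbr1 was missed in 2 of the 12. The next brightest probe sets of Smad3, Smad7 and Acvr2a were not called in M19, at -0.06, 0.03 and 0.11. Nor was that of Smad3 in 129, at -0.14, or that of Inhbb in 129, at 0.47 (limma, adjusted p = 0.13). Those of Cer1, Inhbb and Tgfbr1 were called in M19, at 4.52, 0.76 and -0.71 (limma, adjusted p = 2.4e-08, 0.015 and 0.032). That of Cer1 was also called in 129, at 0.87 (limma, adjusted p = 0.0047). In 129 that of Tgfbr1 was not called, with 8.82 and 8.91 at E13.5 and 8.09 and 8.32 at E17.5.

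By step, from E13.5 to E15.5 in M19, 2 of 28 rose (Inhba and Inhbb) and 2 fell (Smad3 and Otx2), against 5.46% of all probe sets called in either direction. The calls of Inhbb and Smad3 were each missed in 8 of the 12 fits that left out 1 array. In 129, 1 rose (Inhba) and 3 fell (Gdf3, Skil and Otx2), against 4.6% of all probe sets, and the call of Skil was missed in 5 of the 12 such fits. Gdf3, a ligand that also needs the co-receptor, fell by 0.74 ± 0.13 in 129 (limma, adjusted p = 0.0072). Its step in M19 was -0.37 ± 0.13 (limma, adjusted p = 0.16). The strain by stage interaction of Gdf3 was not called (limma F test, unadjusted p = 0.17). Its 129 step was -0.63 without replicate 1 of 129 at E15.5, and ran from -0.86 to -0.3 over 22 alternatives. That step rests on the E15.5 arrays of 129 with high skin, muscle and cartilage markers, whose part in it was not tested. From E15.5 to E17.5 3 rose in M19 (Inhba, Gsc and Foxa2), against 2.34% of all probe sets called, and the call of Inhba was missed without any 1 of the 4 arrays compared. In 129, 0 of 28 were called (limma), against 1.73% of all probe sets. There, 5 of 28 passed an unadjusted p under 0.05, against 5880 of all 45037 probe sets.

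**Figure D4:**
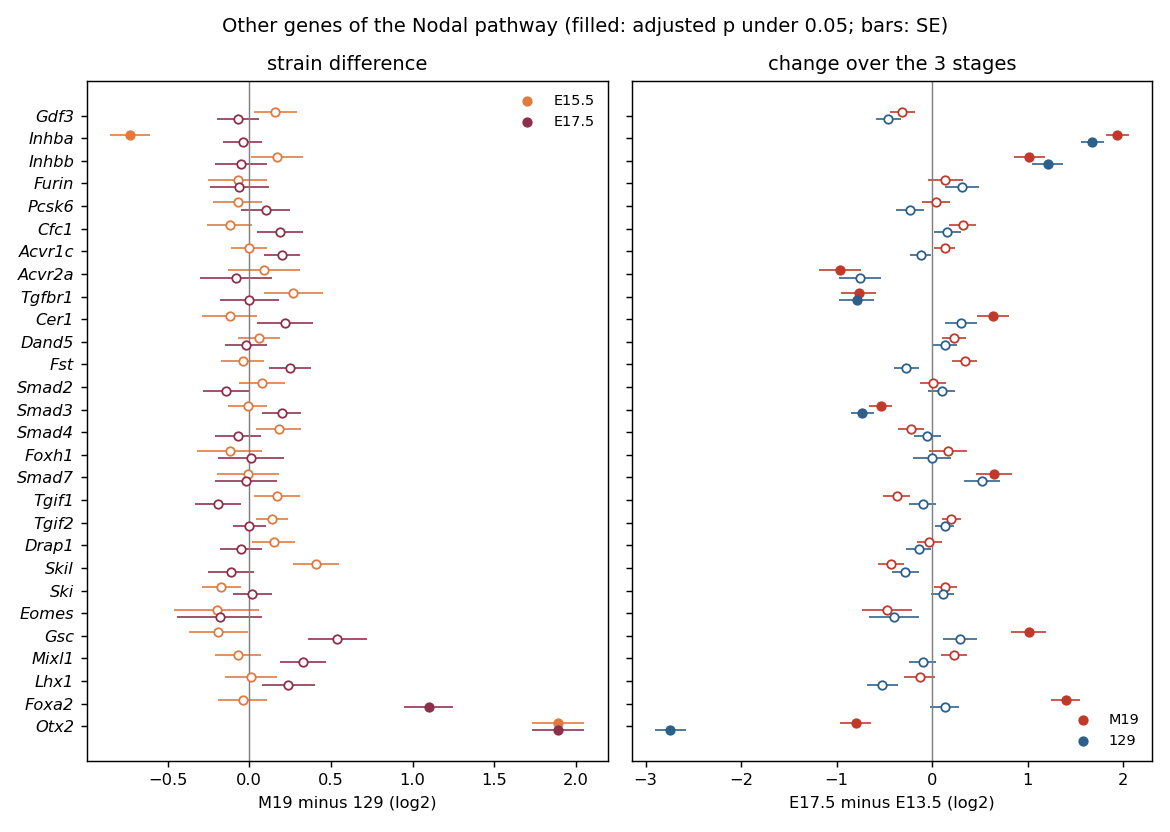
The 28 other genes of the pathway: left, strain difference at E15.5 and E17.5 (M19 minus 129, log2); right, E17.5 minus E13.5 in M19 and in 129 (log2). Filled points passed an adjusted p of 0.05 and bars are the SE of the limma model. Otx2 lies at 1.89 at both stages on the left, and on the right at -0.8 in M19 and -2.74 in 129.

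Dimmer probe sets of the list genes were checked as well, 23 of them for 18 genes, and 5 genes had a call there. They are named after their values were seen. For Cer1, a secreted Nodal antagonist, the dimmer probe set stood at 9.55 and 10 in M19 at E17.5, against 6.16 and 6.05 in 129. This is a difference of 3.67 ± 0.15 (limma, adjusted p = 4e-06), and at E13.5 and E15.5 both strains lay between 5.22 and 5.78 on all 8 arrays. The brighter probe set of Cer1 did not show it, at 8.6 and 8.6 in M19 against 8.3 and 8.47 in 129. The dimmer probe set of Lhx1 was higher in M19 at E17.5 by 3.11 ± 0.33 (limma, adjusted p = 0.0047), with 7.61 and 8.19 in M19 against 5.02 and 4.56 in 129. From E13.5 to E15.5 it changed by -2.94 ± 0.33 in M19 (limma, adjusted p = 0.00032) and by -4.35 ± 0.33 in 129 (limma, adjusted p = 2.1e-05). Its late step in M19 was 1.61 ± 0.33 (limma, adjusted p = 0.032). Over the whole period it was called lower in both strains, at -1.34 in M19 and -4.3 in 129 (limma, adjusted p = 0.024 and 1.6e-05). The brighter probe set of Lhx1 was called in no comparison, and at E17.5 it had 8.76 and 8.66 in M19 against 8.42 and 8.53 in 129.

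The remaining dimmer probe sets with a call were those of Foxh1, Inhbb and Tgfbr1. That of Foxh1 fell from E13.5 to E15.5 by 0.93 ± 0.12 in M19 (limma, adjusted p = 0.00069) and by 0.59 ± 0.12 in 129 (limma, adjusted p = 0.014). It was higher in M19 over the 3 stages by 0.37 ± 0.07 (limma, adjusted p = 0.049). Which probe set of Cer1, Lhx1 or Foxh1 follows the gene's RNA was not tested.

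Marker lists were read beside the Tdgf1 difference. Of 10 germ cell markers 8 were measured, and 0 of 8 were called between the strains at any stage (limma). At an unadjusted p under 0.05, 4, 3 and 1 of 8 passed at E13.5, E15.5 and E17.5. Of all 45037 probe sets, 1252, 3422 and 798 passed that threshold. The mean signal of the 8 markers was 9.34 in M19 and 9.79 in 129 at E13.5. It was 11.16 in M19 and 11.12 in 129 at E15.5, and 10.6 in M19 and 10.59 in 129 at E17.5. Set against that mean on each array, the strain difference of Tdgf1 was 1.3, 1.7 and 2.93 log2 units at the 3 stages. At E13.5 the marker mean itself differed by -0.44 (M19 minus 129). Tdgf1 minus that mean was -2.52 on replicate 1 of 129 at E13.5, the array that stood apart, and -1.75 on the other 129 array. The markers changed with stage, so their mean is not a count of germ cells. The part of germ cell number in the Tdgf1 difference was not tested. From E13.5 to E15.5, when Nodal, Tdgf1 and Lefty1 fell, 7 of the 8 germ cell markers rose in each strain. Over all probe sets 5.46% in M19 and 4.6% in 129 were called in either direction.

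Some pluripotency markers were higher in M19 as well. All 8 were measured, with a mean of 10.3 in M19 and 10.16 in 129 at E13.5, 9.62 in M19 and 8.76 in 129 at E15.5, and 8.21 in M19 and 7.74 in 129 at E17.5. At E15.5 4 of 8 were higher in M19 (Nanog, Sox2, Dppa5a and L1td1) and at E17.5 1 of 8 (L1td1). Over all probe sets 0.573% and 0.0977% were called in either direction. The E15.5 calls rest on the 129 arrays with high skin, muscle and cartilage markers, whose part in them was not tested. Over the whole period 7 of the 8 pluripotency markers fell in M19 and 7 of 8 in 129, against 5.34% and 3.32% of all probe sets called lower. The part of the pluripotency markers in the Tdgf1 difference was not tested.

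Markers of other cell types did not pass the test between the strains: 0 of 7 for Sertoli cells, 0 of 4 for fetal Leydig cells, 0 of 4 for endothelium, 0 of 4 for macrophages and 0 of 2 for mesonephros and ducts, at each stage (limma). At an unadjusted p under 0.05, 1 Sertoli cell marker passed at E15.5, and 2, 1 and 1 fetal Leydig cell markers at the 3 stages. Of all 45037 probe sets, 1252, 3422 and 798 passed that threshold at the 3 stages. The exception among these other cell types was skin, muscle and cartilage, where 10 of 10 were lower in M19 at E15.5. Their mean there was 7.1 in M19 and 10.29 in 129. At E17.5 that mean was 7.56 in M19 and 7.5 in 129. The part of these markers in the Tdgf1 difference was not tested. No marker of any list stood at 0 on any array.

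**Figure D5:**
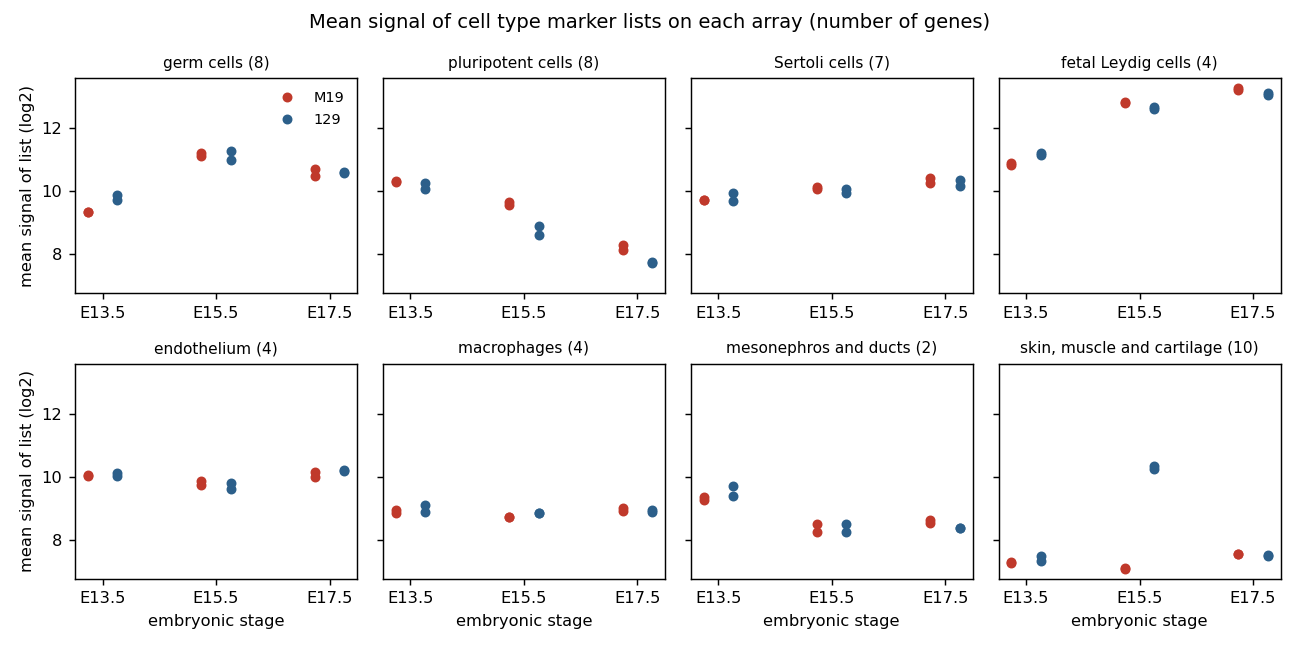
Mean signal (log2, vertical axis) of 8 marker lists on each array by embryonic stage, for M19 (red, left of each pair) and 129 (blue), with the number of genes measured. The skin, muscle and cartilage list stood at 10.25 and 10.33 on the 129 arrays at E15.5 and between 7.08 and 7.56 on the other 10 arrays.

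The genes around Tdgf1 were read between the strains as a description, after the large Tdgf1 difference was seen. Of its neighbours within 200 kb, a window set after the results were seen, 14 were measured. Their strain differences at the 3 stages lay between -0.37 and 0.38 log2 units, and 0 of 14 were called at any stage (limma). At an unadjusted p under 0.05, 0, 1 and 1 of 14 passed at the 3 stages, against 1252, 3422 and 798 of all 45037 probe sets.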

How the data were processed

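Total RNA of 12 samples was measured on Affymetrix whole-genome mouse arrays, in 6 groups of 2. The authors deposited 1 value for each of 45101 probe sets per array, taken here as log2 signal from its range and array medians. Summary, background correction, normalization and log base are not given in the sources used here. Controls (64 probe sets) were left out, and 45037 were tested. The platform annotation pairs 34945 of them with 1 gene, 932 with several and 9160 with none, and 34741 matched RefSeq (GRCm38.p6), which gave 18032 genes. Array data have no read depth. The files held 0 other columns of per-sample values.

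A linear model of the 6 group means was fitted to all 12 arrays without a replicate block, with limma 3.58.1 in R 4.3.3 (6 residual and 4.82 prior degrees of freedom). Tests are two-sided, with Benjamini-Hochberg adjustment over all probe sets, and a call is an adjusted p under 0.05. The strain effect was tested at each stage and over the 3 stages. The stage effect was tested in each strain, and the interaction by an F test of both changes of the strain difference. Tables were joined with pandas 2.3.3 under Python 3.11.15, and figures were drawn with matplotlib 3.10.9. The procedure was tested on simulated data.

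The members, lists and tests were chosen with earlier results of these data known. Named are the 6 genes, list genes called in a comparison, and the 5 genes most like each member with a span of at least 1 log2 unit. Deviations of same-numbered arrays from their group means correlated at -0.347 to 0.539 (highest for E13.5 and E15.5 in 129). The labels give the numbers no shared origin, so they were not taken as pairs. Alternatives were quantile normalization, median centring, a filter on dim probe sets, variance models, the samples in the fit, a replicate block, other probe sets per gene, averaged arrays and each array left out.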

Additional observations from a re-analysis of the deposited data

Results flagged for a closer look

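By the test of the strain by stage interaction itself (limma F test), the strain difference changed with stage for 1 of the 28 list genes, Otx2, read by its brightest probe set. The adjusted p was 0.0049, with differences (M19 minus 129) of -0.05 at E13.5, 1.89 at E15.5 and 1.89 at E17.5. The dimmer probe set of Cer1 also passed, with an adjusted p of 5.6e-05 and differences of 0.02, 0.09 and 3.67, but the brighter one of Cer1 did not (adjusted p = 1). No group has the 4 arrays needed to test a single array as an outlier.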

How the results depend on the processing

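Counts of called genes at E13.5 between strains, over the whole period in M19 and in the interaction were within 1.5 times the main count in all alternatives run, and so were those under the replicate block in all 11 comparisons (0 of 6 at E13.5, 4 and 3 of 6 in the early steps of M19 and 129). The strain count at E15.5 went to 0 with quantile normalization, median centring, dim probe sets left out and the next brightest probe set. The counts at E17.5, over the 3 stages and in the late step of M19 went to 0 with dim probe sets left out and with the next brightest probe set. Dim probe sets left out removes Nodal and Tdgf1 from the test, and the next brightest probe set exists for Nodal, Acvr1b and Acvr2b alone. The early step in M19 then had 2 calls without dim probe sets and 1 with the next brightest. The early step in 129 had 1 without dim probe sets and 1 with only the arrays compared, and the whole period in 129 had 1 without dim probe sets. The late step in 129 had 1 (Nodal) when 1 probe set per gene was tested. When both arrays of a group were averaged, the strain effect over the 3 stages called 0 (Tdgf1, limma adjusted p = 0.19); fewer samples enter that fit. Leaving out each array in turn gave 0 to 1 at E15.5, at E17.5, in the late step of M19 and in the late step of 129, and 2 to 4 in the early step of M19. With the next brightest probe set, Inhba changed to 0 at E15.5 between strains and to -0.02 in the early step of 129, and Acvr2a to 0.11 over the whole period in M19; the cause was not tested. Over the 28 list genes the counts over all alternatives ran from 0 to 2 at E15.5, 0 to 4 at E17.5, 4 to 11 over the whole period in M19 and 2 to 8 in 129. Crossed replicate numbers as a block, chosen after seeing the data, called 1 of 6 at E15.5 and 1 of 6 in the late step of 129. Signals near the bottom of the scale, no detection calls and 2 arrays per group limit every value.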
